A study of Mus musculus with 10 samples.

Results

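The genes described here are the 3 TGF-beta ligands (Tgfb1, Tgfb2, Tgfb3), their 3 receptors (Tgfbr1, Tgfbr2, Tgfbr3), the signal transducers Smad2, Smad3 and Smad7, and the matrix protein Ltbp2. They were chosen by symbol, 10 genes of the 20983 that the deposited tables name. RNA was measured by sequencing in mouse hearts on the C57BL/6 background, with or without Larp7, which encodes a protein that binds the noncoding RNA 7SK. The embryonic groups were 3 samples of whole wild-type hearts (Larp7+/+) and 3 of Larp7-/- hearts, all at E15.5. The adult groups were 2 samples of heart apex from mice carrying floxed Larp7 alleles without Cre (Larp7f/f) and 2 from mice carrying the same alleles with Myh6Cre, all 4 months old. Myh6Cre is driven by a cardiomyocyte promoter, so other cell types of the apex keep the gene. No label states that the samples of one group are different animals, and p-values then measure only the spread between these samples.

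TGF-beta ligands are secreted as latent complexes that are stored in the extracellular matrix until they are released. An active ligand binds the type II receptor, encoded by Tgfbr2, which recruits and activates the type I receptor, encoded by Tgfbr1, and the type I kinase phosphorylates SMAD2 and SMAD3, which enter the nucleus with SMAD4. SMAD7 is induced by the same signal and inhibits it. In the embryonic heart the pathway is known for its part in forming the valve cushions and the coronary vessels, and in the adult heart for driving fibroblasts to make matrix.

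All 10 genes are in the adult table, and 7 are in the E15.5 table, which does not list Tgfb3, Tgfbr2 or Smad2. Each listed gene had a mean of at least 10 over all samples of its table and was tested. Ltbp2 in the adult passed only through the knockout group. Values are rounded to whole numbers and sum to between 998498 and 1001508 in a sample, so the sequencing depth is unknown. No source used here says whether they are per length, and levels are therefore compared within a gene and not between genes. For a given gene, the control value plus the knockout value with its replicate number came to a constant sum (tolerance 2) in 8328 of the 8366 genes tested in embryos and in 8642 of the 8658 tested in adults. A high control value thus goes with a low knockout value of the same number, the SDs of the 2 groups are not independent, and what varies freely is the difference within each number. Groups that do not overlap are then nearly the same thing as within-number differences of one sign. Of the genes with differences of one sign, 3188 of 3194 in embryos and 4652 of 4657 in adults did not overlap. Larp7 checks the embryonic labels, at 96, 88 and 103 in the wild type and 45, 54 and 40 in the knockout. It was 26 and 28 in adult controls against 26 and 24 in the adult knockout, and so does not check the adult labels.

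Among the 7 members measured at E15.5 every log2 change was positive, and 6 had all knockout values above all wild-type values. Of the 8366 genes tested, 25.2% were higher without overlap and 12.9% lower, and 62.6% had a positive change. The median change was 0.35 over the 7 members and 0.09 over all tested genes. In the adult, 8 of the 10 members had a positive change (64.4% of all 8658 tested genes), and 6 were higher without overlap against 36.1% of tested genes, with 0 lower against 17.6%. The adult medians were 0.26 for the members and 0.07 for all tested genes. Changes are knockout minus control on the log2(value + 1) scale, from limma with the replicate number as a block. After Benjamini-Hochberg adjustment over all tested genes limma called 0 genes in either model, which is 0% of those tested, members included. A lack of calls does not show that nothing differed. An unadjusted p under 0.05 was reached by 1035 embryonic genes (12.4%, split into 8.61% higher and 3.77% lower), among them Tgfbr3 and Smad3, both higher. It was reached by 1038 adult genes (12%, with 8.32% higher and 3.67% lower), among them Tgfb2 and Tgfb3, both higher. An earlier fit of these data, kept as an alternative, called 0.529% of genes higher at E15.5, with 0 members, and 2.34% higher in the adult, with the 2 members Tgfb2 and Ltbp2. With median-of-ratios scaling, tried after seeing the data, the shares of genes without overlap became 20% higher and 22.3% lower at E15.5, and 29.3% and 31.4% in the adult. The members then numbered 4 higher at E15.5, where Tgfb1 and Smad7 came to overlap, and 6 higher and 2 lower in the adult, the lower ones being Tgfbr3 and Smad3.

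**Figure D1:**
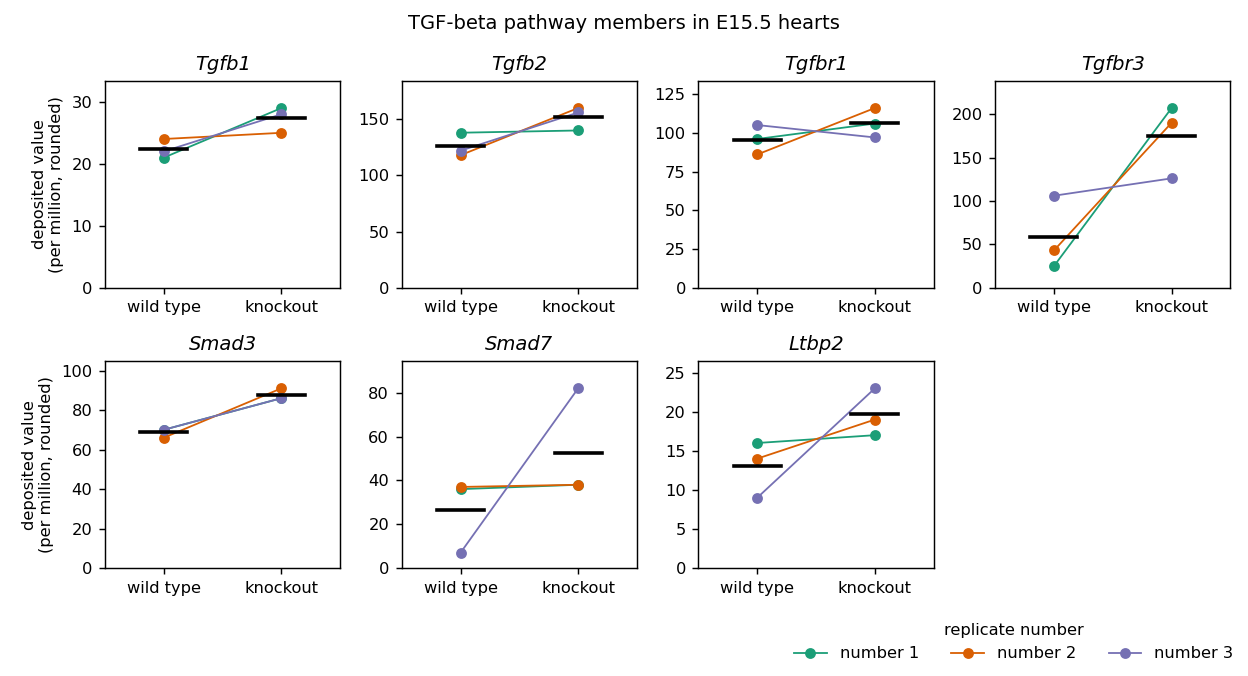
Deposited values (rounded, vertical axis from 0) of the 7 members listed at E15.5, in wild-type and Larp7 knockout hearts. Points of the same replicate number share a colour and are joined, and black bars are group means (n = 3). Tgfbr3 separates widely in numbers 1 and 2 and little in number 3, whereas Smad7 separates in number 3 alone.

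**Figure D2:**
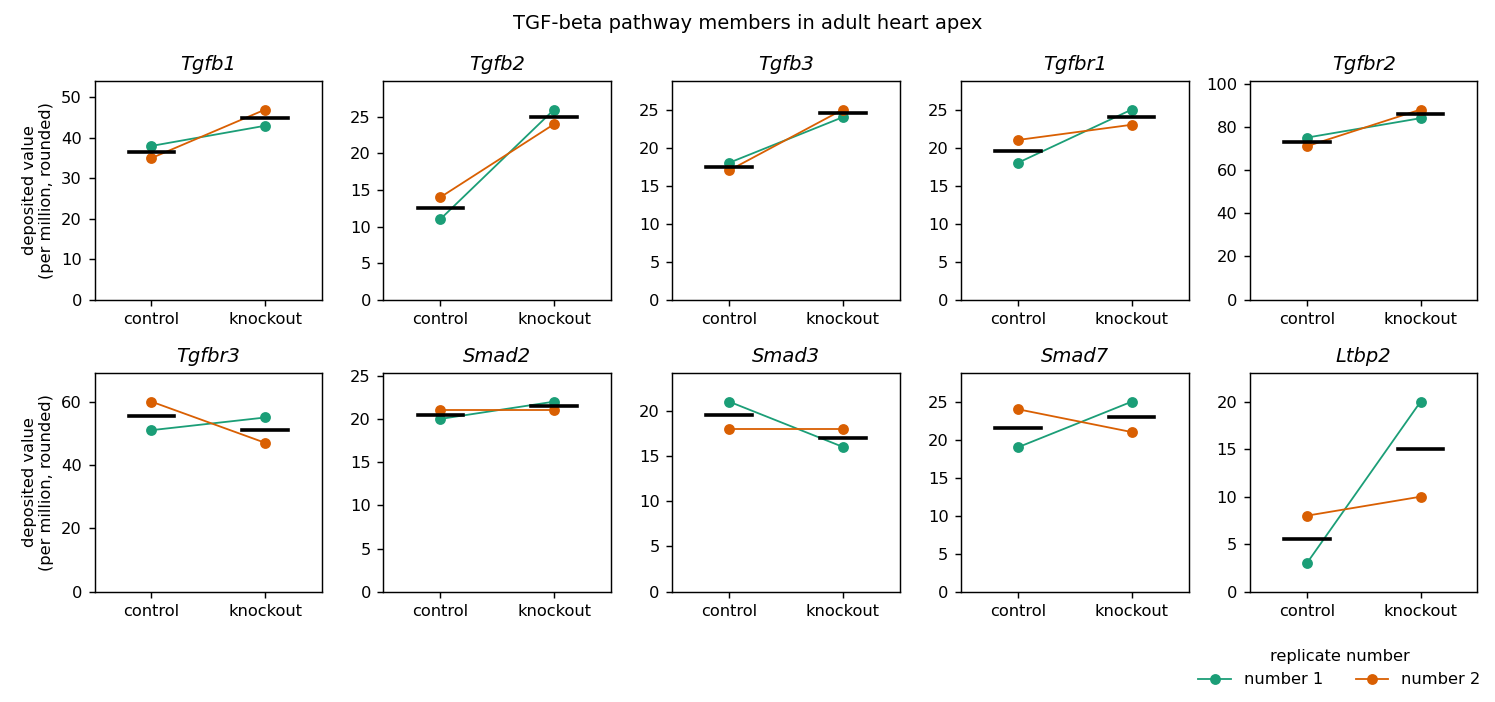
Deposited values (rounded, vertical axis from 0) of the 10 members in adult heart apex, in control and Larp7 knockout samples. Points of the same replicate number are joined, and black bars are group means (n = 2). Tgfb2 and Tgfb3 lie higher in both knockout samples, and Ltbp2 does so mainly in number 1.

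Of the ligands, Tgfb2 had the largest adult change. The gene lies on the minus strand of chromosome 1, at 186622792 to 186705989 (mm10), and its product is the ligand known for valve cushion formation. It was 11 and 14 in the adult controls and 26 and 24 in the adult knockout. Both knockout values were thus well above both controls, with a ratio of means of 2 and a within-number difference of 12.5 ± 3.54 (SD, n = 2). The log2 change of 0.95 (SE 0.17, 95% interval 0.14 to 1.76, limma adjusted p = 0.412) was exceeded by 83 of the 8658 tested genes. With the variance of rounding added to each gene's variance, limma called 555 of the 8658 tested genes, Tgfb2 among them (adjusted p = 6.03e-05). Over all the settings its adjusted p ranged from 6.03e-05 to 0.446.

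At E15.5 Tgfb2 was 138, 118 and 122 in the wild type and 140, 160 and 156 in the knockout. The groups did not overlap, but number 1 differed by 2 only, and the log2 change of 0.27 (SE 0.13, limma adjusted p = 0.414) lay at the 75.4th percentile of all changes. Tgfb2 shares 124 of its 5791 exon bases with the antisense gene Gm29491. No source used here says whether reads were counted by strand, so reads of the pair cannot be told apart.

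Tgfb1, the ligand most often tied to fibrosis, differed by nearly the same small amount in both models. It lies on the plus strand of chromosome 7 from 25687002 to 25705077. It measured 21, 24 and 22 against 29, 25 and 28 at E15.5, and 38 and 35 against 43 and 47 in the adult. In each model every knockout value was above every control value. The log2 changes were 0.28 (SE 0.15, limma adjusted p = 0.42) and 0.29 (SE 0.10, adjusted p = 0.419), each of them larger than in 76.4% and 85.3% of the tested genes. A change of this size is common in both tables.

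Tgfb3, on chromosome 12 at 86056745 to 86079041, minus strand, encodes another ligand and was measured in the adult alone. It was 18 and 17 in the controls and 24 and 25 in the knockout, a difference of 7 ± 1.41 (SD, n = 2). Its log2 change of 0.46 had a 95% interval of 0.17 to 0.76 (SE 0.06, limma adjusted p = 0.412) and was exceeded in 501 genes. With no replicate block limma called 1042 of the 8658 tested genes, Tgfb3 among them (adjusted p = 0.0365). That fit takes the control and knockout values of a number as independent, which they are not. Tgfb3 overlaps exons of Gm37804 and Gm48008 on the other strand.

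Ltbp2 is an extracellular protein of elastic microfibrils. Its relatives LTBP1, LTBP3 and LTBP4 bind latent TGF-beta, whereas LTBP2 is known to bind fibrillin-1 and not the latent ligand. The gene is on chromosome 12 at 84783212 to 84876532, minus strand. In the adult it was 3 and 8 in the controls and 20 and 10 in the knockout. Its mean of 10.25 passed the filter of 10 only through the knockout, whose mean was 15 against 5.5 in the controls. The ratio of means was 2.73, but the within-number differences were 17 and 2, and the log2 change of 1.34 (SE 0.79, 95% interval -2.53 to 5.21, limma adjusted p = 0.527) was 2.39 in number 1 and 0.29 in number 2. The control value of 3 meets the fixed total only when it is given a negative sign, so a control level this low cannot be read as measured. With the variance of rounding added, limma called 555 of the 8658 tested genes, Ltbp2 among them (adjusted p = 0.000123). The SE of Ltbp2 was 0.285 in that fit, against 0.79 above, although its within-number differences lay far apart. Over all the settings its adjusted p ranged from 0.000123 to 0.595. Of the 8184 exon bases of Ltbp2, 764 are shared with the antisense gene D030025P21Rik.

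At E15.5 Ltbp2 was 16, 14 and 9 in the wild type and 17, 19 and 23 in the knockout. Here too the groups did not overlap and 1 number made up most of the change. The log2 change of 0.59 (SE 0.27, limma adjusted p = 0.404) was 0.25 without number 3.

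The promoters of Tgfb2 and Ltbp2, the members with the largest adult changes, are shown beside that of Tgfb1, which differed little, to let them be compared for the short SMAD-binding motif CAGAC. Promoter sequences of 6 of the 10 members were matched by symbol in RefSeq (GRCm38.p6, the assembly of mm10). The window is the 250 bases before the transcription start, read 5′ to 3′ on the gene's strand, and in Ltbp2 it is cut where the longest annotated transcript begins. The positions are chr1:186705990-186706239 (minus) for Tgfb2, chr12:84876533-84876741 (minus) for Ltbp2 and chr7:25686752-25687001 (plus) for Tgfb1. Capitals mark CAGAC or its reverse complement GTCTG.
Tgfb2: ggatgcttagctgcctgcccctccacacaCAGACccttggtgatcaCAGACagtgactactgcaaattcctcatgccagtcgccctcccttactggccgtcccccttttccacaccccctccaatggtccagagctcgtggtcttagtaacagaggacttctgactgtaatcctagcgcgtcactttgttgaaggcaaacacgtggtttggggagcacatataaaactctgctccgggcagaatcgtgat
Ltbp2: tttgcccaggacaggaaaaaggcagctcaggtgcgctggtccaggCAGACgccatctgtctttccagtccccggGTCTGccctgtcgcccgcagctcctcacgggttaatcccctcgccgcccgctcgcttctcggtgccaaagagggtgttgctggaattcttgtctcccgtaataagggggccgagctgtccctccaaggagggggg
Tgfb1: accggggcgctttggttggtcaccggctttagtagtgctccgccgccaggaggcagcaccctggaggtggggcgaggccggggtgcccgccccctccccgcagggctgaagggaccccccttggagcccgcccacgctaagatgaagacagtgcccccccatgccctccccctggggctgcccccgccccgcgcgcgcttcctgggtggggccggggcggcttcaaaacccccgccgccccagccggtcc
All 3 are shown as examples, and the other matched members are given in words. The window of Tgfb2 holds CAGAC at positions -221 and -204 from the start, that of Ltbp2 holds CAGAC at -205 and GTCTG at -176, and that of Tgfb1 holds neither. The Ltbp2 positions count from the RefSeq start, which lies beyond the end of the 209 bases shown. CAGAC is also at -160 in the window of Tgfbr2 and at -203 in 1 of the 2 windows of Tgfbr1, whose adult changes of 0.23 and 0.29 are about as small as the 0.29 of Tgfb1, and it is not in the window of Smad3. Of 32851 promoter windows in the RefSeq table, 42.2% hold the motif on either strand and 11.7% hold it at least 2 times. The longer palindrome GTCTAGAC, which 0.167% of the windows hold, is in none of the 3. A match describes these letters and does not show a site in use.

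Of the receptors, Tgfbr3 had the largest change of any member at E15.5. It encodes betaglycan, a coreceptor that presents ligand, TGF-beta 2 above all, to the signalling receptors, and it lies on chromosome 5 at 107106570 to 107289629, minus strand, and shares 297 of its 6545 exon bases with Gm43422 on the same strand. The wild-type hearts had 25, 43 and 106, and the knockout hearts 207, 190 and 126. The groups did not overlap and the ratio of means was 3.01, yet the within-number differences were 182, 147 and 20. The log2 change of 1.79 (SE 0.52, 95% interval 0.45 to 3.12, limma adjusted p = 0.398) was exceeded by 12 of 8366 tested genes. It was 2.56 without number 3 and 1.18 without number 1, and thus above 1 with any number left out. For Tgfbr3 the log2 change in the authors' deposited table is 1.53, with an adjusted p of 0.0164. The authors list an adjusted p for only 2601 of the 15498 genes at E15.5. Of these, 26 are under 0.05, with 12 higher and 14 lower. For Tgfb2 and Tgfbr1 at E15.5 the adjusted p of the authors' deposited table is 0.723 and 0.916, and it lists none for the other members. In the adult the authors list no adjusted p for any member. Their adult log2 changes are 0.94 (SE 0.67) for Tgfb2, 0.42 (SE 0.63) for Tgfb3 and 1.39 (SE 0.99) for Ltbp2. These SEs are larger than those of the limma fit for the same genes.

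In the adult apex Tgfbr3 showed no such difference. It was 51 and 60 in the controls and 55 and 47 in the knockout, which overlap. The log2 change was -0.12 (SE 0.17, 95% interval -0.97 to 0.73, limma adjusted p = 0.732), positive in number 1 and negative in number 2.

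Tgfbr1, the type I receptor kinase, on the plus strand of chromosome 4 from 47353222 to 47414931, had small changes. At E15.5 it was 96, 86 and 105 against 106, 116 and 97, with overlap and with number 3 lower in the knockout (log2 change 0.15, SE 0.14, limma adjusted p = 0.593). In the adult it was 18 and 21 against 25 and 23, without overlap (log2 change 0.29, SE 0.13, adjusted p = 0.459). Tgfbr2, the type II receptor, on chromosome 9 at 116084293 to 116175360, minus strand, was measured in the adult and was 75 and 71 against 84 and 88. Its groups did not overlap, and the log2 change of 0.23 (SE 0.06, adjusted p = 0.415) was larger than in 78.5% of tested genes. The changes of both signalling receptors were thus within the common range.

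Smad3, which carries the signal into the nucleus, had the most even change of the SMADs at E15.5. It lies on chromosome 9 at 63646767 to 63757994, minus strand. The wild-type hearts had 70, 66 and 70 and the knockout hearts 86, 91 and 86, with no overlap and little spread within either group. The within-number differences were 16, 25 and 16, and the log2 change was 0.35 (SE 0.11, 95% interval 0.06 to 0.63, limma adjusted p = 0.398). That is larger than in 82.7% of tested genes. With no replicate block, which takes dependent values as independent, limma called 996 of the 8366 tested genes, Smad3 among them (adjusted p = 0.0234). In the adult Smad3 was 21 and 18 against 16 and 18, with a shared value of 18, and its log2 change was -0.19 (SE 0.14, adjusted p = 0.582).

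Smad7, the inhibitory SMAD, is on the plus strand of chromosome 18 from 75367529 to 75395935. At E15.5 it was 36, 37 and 7 in the wild type and 38, 38 and 82 in the knockout. Numbers 1 and 2 were nearly equal between groups and number 3 alone differed, by 75. The value of 7 meets the fixed total only with a negative sign. The log2 change of 1.16 (SE 0.71, 95% interval -0.64 to 2.97, limma adjusted p = 0.455) was 0.06 without number 3, so the gene's place among the larger changes (99.2nd percentile) rests on that number. In the adult Smad7 was 19 and 24 against 25 and 21, with overlap (log2 change 0.10, SE 0.21, adjusted p = 0.833).

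Smad2, the partner of Smad3 in carrying the signal, on the plus strand of chromosome 18 from 76241580 to 76310963, was measured in the adult and hardly differed. It was 20 and 21 in the controls and 22 and 21 in the knockout. The log2 change of 0.07 (SE 0.06, limma adjusted p = 0.601) had a 95% interval of -0.22 to 0.36.

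**Figure D3:**
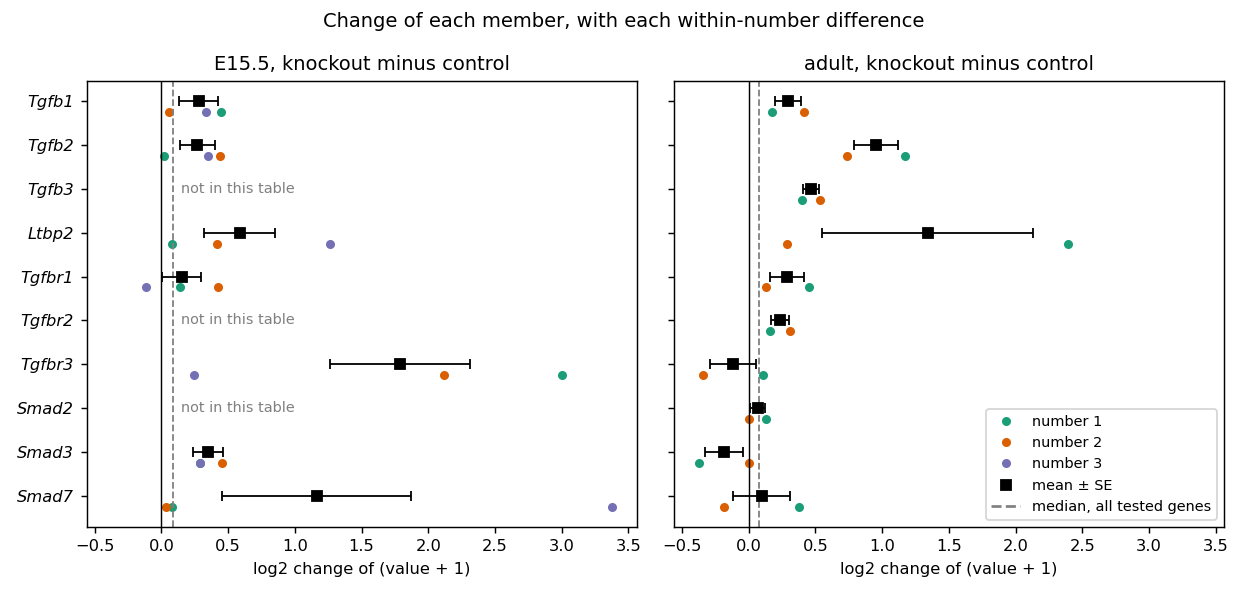
Log2 change of (value + 1), knockout minus control, of each member at E15.5 (left) and in the adult (right). Squares with bars are the fitted change ± SE, coloured points are the differences within each replicate number, and the dashed line is the median of all tested genes. Tgfbr3 and Smad7 at E15.5 and Ltbp2 in the adult have within-number differences that lie far apart, whereas both adult differences of Tgfb2 lie between 0.74 and 1.17.

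Whether a change differed between the models was tested on the within-number differences, adult minus E15.5, over 5641 genes with a mean of at least 10 in both tables. After adjustment limma called 0 of them (0%), and 493 (8.74%) had an unadjusted p under 0.05, among them 3 of the 7 members tested. These were Tgfb2, with a larger change in the adult by 0.68 (SE 0.22, limma adjusted p = 0.56), Smad3, with a difference of -0.53 (SE 0.19, limma adjusted p = 0.56), and Tgfbr3, with -1.91 (SE 0.73, limma adjusted p = 0.56). For Tgfb1 the difference was 0.02 (SE 0.20), for Tgfbr1 0.14 (SE 0.22), for Ltbp2 0.75 (SE 0.64) and for Smad7 -1.07 (SE 0.98). With no replicate block limma called 395 of the 5641 genes, Tgfb2 and Smad3 among them (adjusted p = 0.0406 and 0.0344). That fit takes the control and knockout values of a number as independent, which they are not.

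The control levels can only be set side by side, since the tables were scaled separately and hold whole hearts in one and apex in the other. Tgfb2 was 126 ± 10.6 (SD, n = 3) in E15.5 wild-type hearts and 12.5 ± 2.12 (SD, n = 2) in the adult controls. In order over the 4 groups, Tgfb2 stood highest in the E15.5 knockout (152 ± 10.6), then in the E15.5 wild type, the adult knockout (25 ± 1.41) and the adult control, with no overlap between neighbours. Tgfbr1 (95.7 ± 9.5 against 19.5 ± 2.12) and Smad3 (68.7 ± 2.31 against 19.5 ± 2.12) were likewise higher in the embryonic table. Tgfb1 was the other way round, at 22.3 ± 1.53 in embryonic and 36.5 ± 2.12 in adult controls. Tgfbr3 (58 ± 42.5 and 55.5 ± 6.36) and Smad7 (26.7 ± 17 and 21.5 ± 3.54) had control ranges that overlap between the ages, and the E15.5 SDs of these 2 genes are wide because of number 3. Ltbp2 was 13 ± 3.61 in E15.5 wild-type hearts and 5.5 ± 3.54 in adult controls.

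The rest of the pathway was described from lists of its parts, by counts and medians, with limma calling 0 genes of any list after adjustment. The counts below are to be read against all tested genes, of which 62.6% had a positive change, 25.2% were higher and 12.9% lower without overlap in embryos, and 64.4%, 36.1% and 17.6% in adults. The first list, that of the other latency and storage proteins, also holds general matrix genes such as Bgn, Eln and Fbn1. At E15.5 all 7 tested genes had a positive change (median 0.60, against 0.09 for all tested genes) and 6 of 7 were higher without overlap, among them Bgn, the proteoglycan biglycan, at 211, 198 and 127 against 255, 269 and 339. In the adult 11 of 12 had a positive change (median 0.48, against 0.07) and 8 of 12 were higher without overlap. Ltbp3, which binds latent TGF-beta, was 36 and 51 against 68 and 53 there, without overlap (log2 change 0.48, SE 0.32, limma adjusted p = 0.57). Its relatives Ltbp1, at 50 and 54 against 50 and 45, and Ltbp4, at 370 and 530 against 594 and 434, both overlapped. Emilin1 and Lrrc32 overlapped as well. Bgn was 386 and 413 against 731 and 705 there, a log2 change of 0.84 (SE 0.07, limma adjusted p = 0.412), and Eln, elastin, was 25 and 30 against 46 and 41. Fbn1, the microfibril protein fibrillin-1, was 21 and 55 against 113 and 80, and Adamtsl2 was 0 and 29 against 63 and 35. The adult median was 0.17 without number 1, and the E15.5 median 0.29 without number 3.

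Among the activators of latent ligand, all 5 tested genes had a positive change at E15.5 (median 0.55). Thbs1, thrombospondin-1, was 62, 61 and 56 against 92, 94 and 98, with a log2 change of 0.66 (SE 0.11, limma adjusted p = 0.398). Itgav, the integrin alpha-V subunit, was 67, 60 and 45 against 86, 93 and 108, and Mmp2, a gelatinase, 199, 183 and 170 against 255, 272 and 284. In all 3 genes the lowest knockout value lay above the highest wild-type value. In the adult 7 of 8 had a positive change (median 0.28), with Thbs1 at 16 and 8 against 24 and 32. The exception was Itgb6, an integrin subunit of epithelia, at 16 and 15 against 7 and 8 (log2 change -0.96, SE 0.10, limma adjusted p = 0.412).

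The other receptors of the family had 5 of 5 tested genes positive at E15.5 (median 0.24) and 5 of 8 in the adult (median 0.13). Eng, endoglin, a coreceptor of endothelial cells, was 233, 230 and 207 against 278, 281 and 303 at E15.5, and 193 and 184 against 154 and 164 in the adult, without overlap in either and in opposite directions. Acvrl1, the endothelial type I receptor ALK1, was 44 and 46 against 39 and 36 in the adult. Bambi, a decoy receptor, was 16 in both adult controls and 26 in both knockout samples (log2 change 0.67, SE 0.03, limma adjusted p = 0.412). Of the other SMADs, 3 of 3 embryonic and 2 of 4 adult changes were positive, with medians of 0.34 and 0.01, the latter -0.05 with median-of-ratios scaling and -0.15 without number 1. Smad5, which serves BMP receptors, was 214, 178 and 233 against 257, 293 and 238, and Smad6, an inhibitory SMAD, was 19 and 20 against 18 and 17 in the adult.

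SMAD partners and inhibitors had medians near those of all genes, 0.09 at E15.5 (8 of 10 positive) and 0.10 in the adult (7 of 10 positive). Tgif1, a SMAD corepressor, was 17, 16 and 15 against 24, 25 and 27 at E15.5 (log2 change 0.63, SE 0.15, limma adjusted p = 0.398). Skil, a corepressor induced by TGF-beta, was 19 and 22 against 30 and 28 in the adult. Pmepa1, which limits SMAD signalling, was 43, 45 and 41 against 38, 36 and 40 at E15.5 and 43 and 46 against 55 and 53 in the adult.

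The TGF-beta response genes had the highest adult median of these lists, 0.86, with 13 of 14 positive, 11 higher and 1 lower without overlap, against 64.4% positive, 36.1% higher and 17.6% lower among all tested genes. Postn, periostin, was 20 and 69 against 237 and 187 (log2 change 2.46, SE 0.78, limma adjusted p = 0.416). Col3a1 was 39 and 208 against 543 and 373, and Col1a1 was 25 and 107 against 245 and 163. The 2 numbers of each of these genes differ widely in size and share the direction. Without number 1 the median of the list was 0.46. Cilp, a matrix protein of cartilage and heart fibroblasts, was 14 and 34 against 88 and 40, and its value of 14 meets the fixed total only with a negative sign. At E15.5 the median was 0.33, with 9 of 11 positive, and 0.06 without number 3. Ctgf, connective tissue growth factor, was 93, 85 and 26 against 105, 113 and 224, and Bhlhe40 was 97, 87 and 45 against 100, 110 and 242. As in Smad7, number 3 differed far more than numbers 1 and 2 in both genes, and its wild-type value meets the fixed total only when negative.

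BMP and activin ligands and antagonists had 8 of the 15 listed genes tested at E15.5 (median 0.28, 6 positive), and in the adult 3 of 15 (median 0.54, 2 positive), the others there having a mean under 10. Fstl1, follistatin-like 1, was 82 and 115 against 226 and 194 in the adult, and Nbl1, a BMP antagonist, was 23 in both controls and 34 in both knockout samples. Bmp10, a ligand of trabecular cardiomyocytes, was 142, 143 and 85 against 146, 146 and 373 at E15.5, again with number 3 apart and a changed sign. BMP response genes had a median of 0.43 in the embryos (6 of 6 positive) and of -0.11 among adults (1 of 6 positive). Id3, a transcription inhibitor induced by BMP, was 136, 116 and 132 against 158, 178 and 162 at E15.5 and 43 and 48 against 42 and 38 in the adult.

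Other list medians also moved when a number was left out. Without number 3 at E15.5 the medians were 0.02 for the other SMADs, 0.02 for the partners and inhibitors and 0.28 for the BMP response genes. Without number 1 in the adult they were 0.14 for the activators and 0.03 for the partners and inhibitors. That of the adult receptors was 0.07 without number 1 and 0.08 without number 2.

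**Figure D4:**
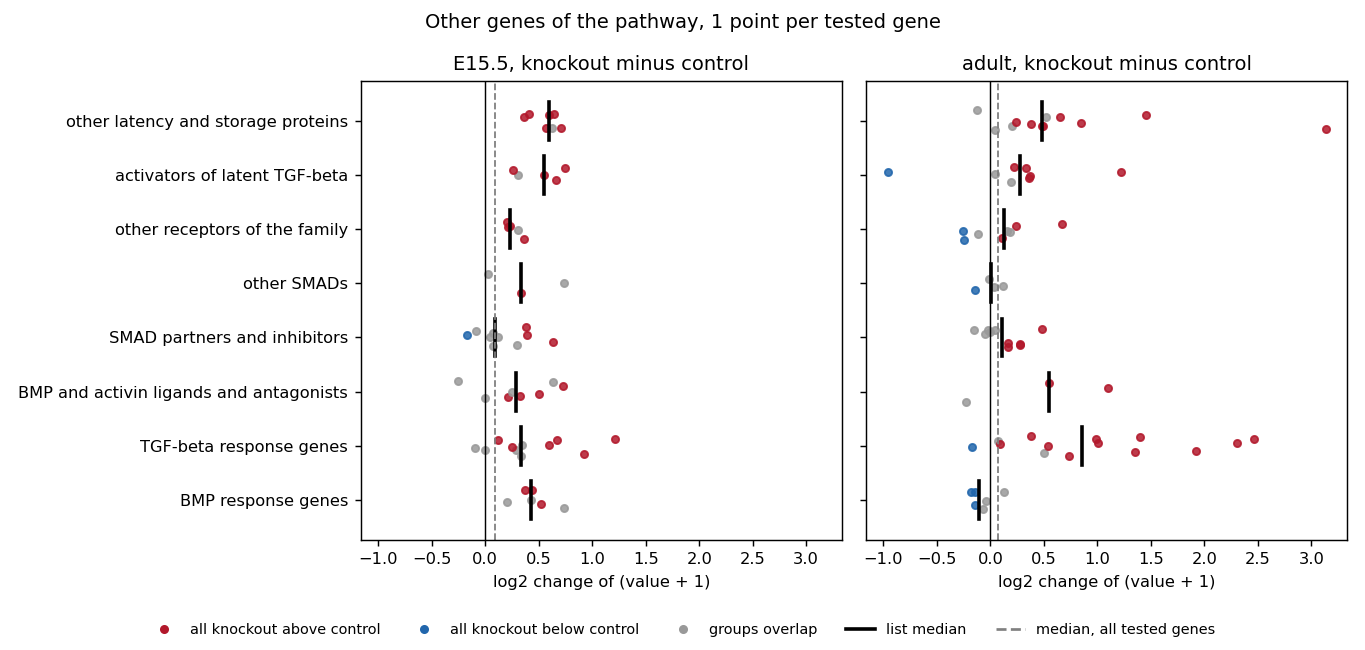
Log2 change of (value + 1), knockout minus control, of the tested genes of each pathway list at E15.5 (left) and in the adult (right), 1 point per gene. Red and blue points have all knockout values above or below all control values, grey points overlap, black bars are list medians, and the dashed line is the median of all tested genes. The TGF-beta response genes reach 2.46 in the adult, and the BMP response genes lie above 0 at E15.5 and mostly below it in the adult.

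Marker sums of several cell types differed between the groups beside these genes, and their part in the results was not tested. In bulk tissue, fewer cells of a type and less RNA per cell cannot be told apart. All 6 fibroblast markers are in the adult table, and their values sum to 1086 to 1091 in the controls and 1513 to 1518 in the knockout. Of the 6, 5 were higher without overlap and 1 had a negative change. Most of the sum is Dcn, at 836 and 733 against 965 and 1069. The 4 myofibroblast markers sum to 164 to 236 and 410 to 481, and of these Cthrc1 is at 0, 0, 1 and 0. Col1a1, Dcn, Postn, Fn1, Acta2 and Tagln stand both in a marker list and in a pathway list. The 5 endothelial markers sum to 653 to 678 and 591 to 617, and the 6 cardiomyocyte markers to 54093 to 54554 and 50303 to 50765. The 4 epicardial markers sum to 16 to 41 and 47 to 73, the 5 macrophage markers to 226 to 240 and 268 to 283, and the 5 smooth muscle and pericyte markers to 675 to 688 and 621 to 634. Of the cardiomyocyte markers 5 had a negative and 1 a positive change. Of the 4 smooth muscle and pericyte markers tested, 3 were negative and 1 positive. Erythroid markers, 4 of 5 listed, ranged from 56 to 649 in the controls and from 558 to 1262 in the knockout. At E15.5, where 3 of 6 fibroblast markers are listed, they sum to 849 to 1304 and 1328 to 1784. Most of that sum is Col1a1, at 1213, 1209 and 759 against 1178, 1183 and 1632, lower in the knockout in numbers 1 and 2. The other fibroblast markers listed, Pdgfra and Ddr2, were higher without overlap. The 4 of 6 cardiomyocyte markers listed at E15.5 sum to 15411 to 18041 and 11665 to 14294. The 2 of 4 myofibroblast markers listed there sum to 1150 to 1489 and 1536 to 1874. Of these, Fn1 was higher without overlap, and Postn overlapped with a log2 change of -0.09. The 2 of 5 smooth muscle and pericyte markers listed there sum to 141 to 166 and 122 to 146. Of these, Rgs5 was lower without overlap, at 83, 76 and 80 against 39, 47 and 42, and Pdgfrb overlapped. The 5 erythroid markers there sum to 1592 to 4328 and 2313 to 5275. Hba.a1 was 2491, 2791 and 887 against 1656, 1356 and 3260, higher in the knockout in number 3 alone. The 4 epithelial markers there sum to 53 to 92 in the wild type and 54 to 201 in the knockout, the highest value being that of number 1. Without number 1 of both groups, 6 of the 7 members were higher without overlap at E15.5, against 37% of tested genes. Leaving out a number cannot make separated groups overlap, so this count does not test the part of the epithelial signal.

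The genes whose 5 within-number differences lay closest to those of a member, by Euclidean distance over 5641 genes, were found for the 4 members that did not overlap in the adult and are in both tables. For Ltbp2 they were Svep1 (distance 0.47), Col1a2 (0.59) and Fbn1 (0.65), 3 genes of extracellular proteins. For Tgfb2 they included Fgl2 (0.32) and Mllt11 (0.37). For Tgfb1 they were Golim4 (0.17), Gstm5 (0.21) and Ptbp1 (0.25), and for Tgfbr1 Dnajc7 (0.14), Cdc42se1 (0.15) and Secisbp2l (0.16). The last 2 sets are close to members whose differences are themselves small, where many genes lie near.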

How the data were processed

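The submitters' processing notes name HISAT2, HTSeq and mm10 and give no versions. The authors deposited, per model, a score per gene and sample, a scaled value rounded to whole numbers. No source used here says how it was scaled or adjusted. The authors' log2 fold changes and p-values stand in the same deposited tables.

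Each table was fitted on its own with limma 3.58.1 (R 4.3.3) to log2(value + 1) of genes with a mean of at least 10, with the replicate number as a block and eBayes with trend. The Benjamini-Hochberg threshold was 0.05. The block follows from the fixed totals: across genes, the deviations of control and knockout with one number correlate at -0.97 to -0.92. An earlier fit of these data, which added the variance of rounding and robust eBayes and kept genes down to a value of 1, is an alternative. The fits were also run on simulated data, and the outcome, not reported here, is not used as support for them. Alternatives were other pseudocounts, filters, scaling, variance settings, the block, and leaving out replicates. The genes, lists and tests were chosen with earlier results of these data known. Named genes are the members, Larp7, some of the 4 genes per list and table with the largest absolute change without overlap, and the 3 nearest genes of 4 members, 1 of which is not reported here. Cthrc1, Ltbp1, Ltbp3, Ltbp4, Emilin1 and adult Lrrc32 were chosen after their values were seen. Gene positions are from GENCODE M21.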

Additional observations from a re-analysis of the deposited data

Results flagged for a closer look

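For 3 of the pathway genes named above, every within-number difference had 1 sign at E15.5 and the opposite sign in the adult. Eng, endoglin, had a log2 change of 0.36 in embryos and -0.24 in adults, a difference of -0.61 (SE 0.17, limma adjusted p = 0.544). Id3, a BMP response gene, had 0.37 and -0.18, a difference of -0.56 (SE 0.20, limma adjusted p = 0.56). Pmepa1 went the other way, with -0.17 and 0.27, a difference of 0.45 (SE 0.17, limma adjusted p = 0.56). None of the 3 passed the adjusted test of the difference. The share of all genes with opposite signs of this kind was not counted, so the 3 have no background beside them. In each model alone, 25.2% of tested genes were higher and 12.9% lower without overlap at E15.5, and 36.1% and 17.6% in the adult.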

How the results depend on the processing

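The count of called genes depends on the fit. In place of 0 at E15.5, limma called 31 genes when genes down to a value of 1 were kept, 86 in the earlier fit and 996 with no replicate block. In the adult it called 234, 488 and 1042 in these settings, 555 with the variance of rounding added and 5462 with crossed numbers, a pairing that leaves little but rounding as residual. With no replicate block 395 genes differed between the models. Other pseudocounts, no filter, robust eBayes and median-of-ratios scaling kept the count at 0 in both models, as did leaving out any number at E15.5. Of 333 values of single members under the alternatives, 312 kept direction and, where there was a test, side of the threshold. Another 8 passed it, each named beside its gene or in the earlier fit, where Tgfb2 (adjusted p = 9.16e-05) and Ltbp2 (0.00086) were called in the adult by limma. With 1 number left out 9 values took the opposite sign and 4 became 0. Within a model, leaving out the control or the knockout sample of a number gave the same value, and both are counted. Of the 9, 5 are differences between the models, which ranged for Tgfb1 from -0.11 to 0.14, for Smad7 from -1.63 to 0.040, for Tgfbr1 from -0.026 to 0.30 and for Ltbp2 from -0.30 to 1.81. The other 4 are adult changes, which ranged for Tgfbr3 from -0.35 to 0.11 and for Smad7 from -0.18 to 0.38. Adult Smad2 and Smad3 were 0 without number 1. The cause was not tested. Leaving out a number in the adult leaves 1 difference and no test. Depth is unknown, and a rounded value near 10 can move by a few percent through rounding.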
